A study of Mus musculus with 4 samples.

Results

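The cyclin-dependent kinase (CDK) inhibitors Cdkn1a, Cdkn1b, Cdkn1c, Cdkn2c and Cdkn2d, the D-type cyclins Ccnd1, Ccnd2 and Ccnd3, and their kinase partners Cdk4 and Cdk6 were followed over 4 microarrays of bone marrow-derived macrophages (BMDMs). These 10 genes were chosen by symbol, with their values on the same 4 arrays known, so the values below describe them and were not tested. All 10 were found, among 23305 named genes, on 16 of 55575 probes. On all 4 arrays, 15 of the 16 probes were well above background, including the brightest probe of each of the 10 genes.

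D-type cyclins are made when a growth factor such as M-CSF reaches a cell, and they bind CDK4 or CDK6 to form the kinases that phosphorylate the retinoblastoma protein and release E2F factors for entry into S phase. Members of the INK4 family, such as p18 (Cdkn2c) and p19 (Cdkn2d), bind CDK4 and CDK6 alone, whereas the Cip/Kip proteins p21 (Cdkn1a), p27 (Cdkn1b) and p57 (Cdkn1c) bind a wider set of cyclin-CDK complexes. The kinase mTOR is a sensor of nutrients and growth factors that promotes cell growth, and Lamtor1 is the subunit that holds the Ragulator complex, a platform for mTORC1, on the lysosome.

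BMDMs came from 10-week-old C57BL/6J mice, after 6 days of bone marrow culture in L929 supernatant, a source of M-CSF. Wild-type cells were given IFNg at 20 ng/ml together with LPS at 100 ng/ml for M1, 50 ng/ml IL-4 for M2, or the same dose of IL-4 with 250 nM Torin1, an ATP-competitive inhibitor of mTOR, and p18 (2400001E08Rik) -/- cells, here called Lamtor1-deficient, were given IL-4, each for 2 days. The labels call the controls wild type. The paper defines the wild-type BMDMs of its figures as cells of mice with the floxed Lamtor1 allele and without Cre. The labels do not state this for the arrayed cells. Deletion used Cre under the lysozyme M promoter, which is active in myeloid cells, neutrophils included, and how many mice stand behind an array is not given in the sources used here. There was 1 array per condition, so no SD between samples and no p-value exists, and each difference below compares 2 arrays.

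Lamtor1 itself, listed as 2400001E08Rik, had a log2 ratio of -5.42 on the Lamtor1-deficient array against M2. All 9 macrophage markers measured were well above background on all 4 arrays, and on each treated array 3 of the 9 were at least 2-fold lower than M2 and 0 higher. The lowest was Fcgr1, an Fc receptor, at log2 ratios of -4.96 (Lamtor1-deficient) and -4.61 (Torin1), and Emr1, the F4/80 antigen, stood at -2.57 and -2.81. Neutrophil markers differed more. Their summed normalised signal was 90.5 on the M2 array against 6.30 (Lamtor1-deficient), 5.87 (Torin1) and 4.41 (M1), with 6 of 6 genes at least 2-fold lower in each comparison, so every ratio to M2 below was taken to an array with more signal from neutrophil markers, whose part in the results was not tested. In RNA of a whole culture, fewer cells of a type and less RNA per cell cannot be told apart.

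Sequences before the transcription start were read for members whose probes moved apart or together between arrays. The promoter table used here, from RefSeq on GRCm38.p6, covered 7 of the 10 members and not Cdkn1c, Ccnd1 and Ccnd2. The 150 bases before a start are shown for both Cdkn1a starts, since Cdkn1a probes differed after Torin1, for Cdkn1b and Ccnd3, which moved in opposite directions after Torin1, and for Cdk4, whose probes disagreed. The Cdk4 probes are all annotated to the same transcript, and no link between a window and the values of probes was tested. Capitals mark motifs found on either strand. The letters searched were TATAAA for the TATA box, CCAAT for the box of that name and GGGCGG for the GC box. In addition, CACGTG stood for the E-box, which is the site of MYC and its relatives, GTAAACA for the site of FOXO factors and TTTGGCG for that of E2F factors.

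Cdkn1a, upstream start, chr17:29090829-29090978, plus strand: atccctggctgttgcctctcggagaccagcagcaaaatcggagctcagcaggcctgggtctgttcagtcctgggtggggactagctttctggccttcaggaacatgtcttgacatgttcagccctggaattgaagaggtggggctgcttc
Cdkn1a, downstream start, chr17:29093619-29093768, plus strand: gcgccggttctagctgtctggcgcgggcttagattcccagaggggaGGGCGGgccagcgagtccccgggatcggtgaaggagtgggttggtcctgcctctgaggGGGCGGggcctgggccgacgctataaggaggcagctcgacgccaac
Cdkn1b, chr6:134920251-134920400, plus strand: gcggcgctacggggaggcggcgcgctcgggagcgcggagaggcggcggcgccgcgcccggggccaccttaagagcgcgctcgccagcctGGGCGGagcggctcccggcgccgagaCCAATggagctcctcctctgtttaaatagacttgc
Ccnd3, downstream start, chr17:47593317-47593466, plus strand: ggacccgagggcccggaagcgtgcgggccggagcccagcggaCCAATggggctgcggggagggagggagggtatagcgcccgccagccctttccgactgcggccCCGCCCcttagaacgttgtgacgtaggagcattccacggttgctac
Cdk4, chr10:127063385-127063534, plus strand: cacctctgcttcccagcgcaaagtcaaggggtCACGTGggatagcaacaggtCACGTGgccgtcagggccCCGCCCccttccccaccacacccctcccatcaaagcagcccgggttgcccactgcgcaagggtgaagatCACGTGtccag

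The 2 Cdkn1a starts lie 2790 bases apart, and the upstream window held none of the 6 motifs while the downstream one held 2 GC boxes. Sites of p53 and of other factors were not searched, so a window without these motifs is not shown to lack regulatory sites. Cdkn1b and the Ccnd3 window shown each held 1 CCAAT box and 1 GC box, and the window of the upstream Ccnd3 start (chr17:47504901-47505050) held 1 GC box and 0 CCAAT boxes. Of 32851 promoter windows of the same length, 24.5% held a CCAAT box and 28.6% a GC box. Cdk4 held 1 GC box and 3 E-boxes, a motif present in 4.30% of all windows and present at least 3 times in 15 of them (0.0457%). That mark of 3 is the Cdk4 count itself, and no such share was read for the other motifs. No window of a member held the FOXO or the E2F letters, which occurred in 1.80% and 0.767% of all windows.

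Probes on the array are 60 bases long. Those for Ccnd2 and for 1 of the Cdk4 transcript positions lie in coding sequence and are given here in lower case throughout, on mm9, the build of the array annotation, because the Ccnd2 values rest on this single probe and this Cdk4 probe is compared with the others of the gene.

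Ccnd2 probe, chr6:127098696-127098755, minus strand: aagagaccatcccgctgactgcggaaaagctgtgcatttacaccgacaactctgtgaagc
Cdk4 probe, chr10:126503162-126503221, plus strand: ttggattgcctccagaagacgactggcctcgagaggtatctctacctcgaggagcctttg

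Values are given as normalised signals, the processed signal of a probe divided by the 75th percentile of all non-control probes on that array. A log2 ratio is the log2 of 1 array's normalised signal over that of another. Probes spotted at least 8 times gave a technical SD of a log2 ratio of 0.0863 (Lamtor1-deficient over M2), 0.0907 (Torin1 over M2) and 0.0948 (M1 over M2), which covers spots within an array and not cultures or mice. The plot of normalised signals by array shows each of the 16 probes.

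**Figure D1:**
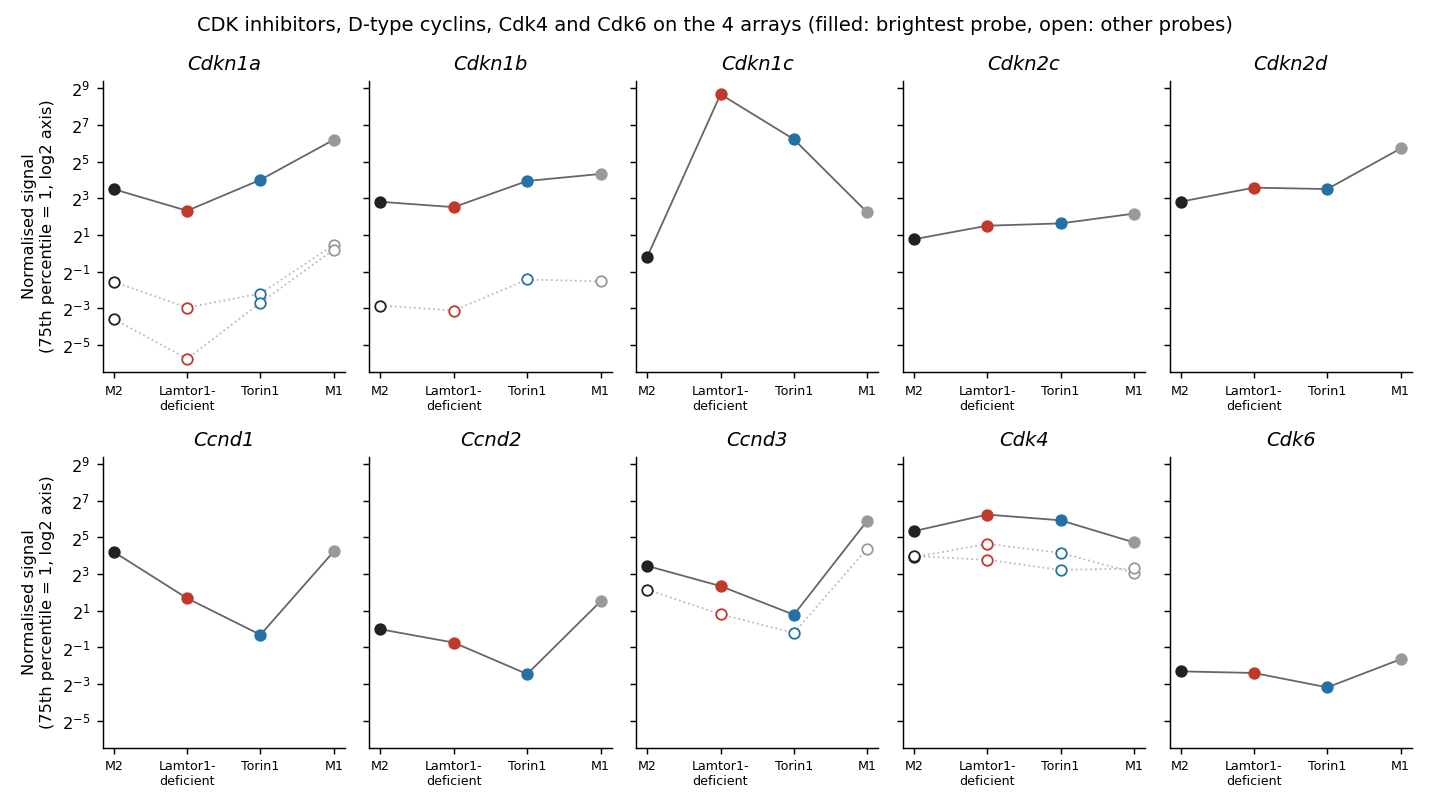
Normalised signal (log2 axis, 75th percentile of the array = 1) of each member on the M2, Lamtor1-deficient, Torin1-treated and M1 arrays, with 1 point per array and probe and lines joining the points of a probe. Filled points are the brightest probe and open points the other probes. Cdkn1c went from 0.875 on M2 to 410.4 and 74.7, and Ccnd1 went from 18.5 to 3.21 and 0.807.

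Among the Cip/Kip inhibitors, Cdkn1c, which encodes p57, gave the widest range of any member. Its probe (chr7:150644753-150644812, minus strand, mm9) read 0.875 on M2, 410.4 on Lamtor1-deficient, 74.7 on Torin1 and 4.72 on M1. It was lowest on M2 and highest without Lamtor1, and each step in the order M2, M1, Torin1, Lamtor1-deficient was larger than 2 technical SDs. The fold over M2 was 469 without Lamtor1, 85.4 with Torin1 and 5.39 in M1. Of the 13959 genes well above background on both the M2 and the Lamtor1-deficient array, its log2 ratio of 8.87 ranked 4 from the highest, and with Torin1 its 6.42 ranked 4 of 14038. The Lamtor1-deficient array was 5.49-fold above the Torin1 array. Over the scalings and background corrections tried, the log2 ratio lay between 8.66 and 8.99 without Lamtor1 and between 6.17 and 6.50 with Torin1.

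Cdkn1a encodes p21, a target of p53 that is also known for protecting macrophages from apoptosis during activation. The brightest probe (chr17:29237377-29237436, mm9) was spotted 10 times on each array. It read 11.3 on M2, 5.02 on Lamtor1-deficient, 16.2 on Torin1 and 73.6 on M1. The Lamtor1-deficient array was the lowest and M1 the highest, and the spots of the 4 arrays did not overlap. The log2 ratio to M2 was -1.18 without Lamtor1, 0.51 with Torin1 and 2.70 in M1, and the SD of the log2 signal over the 10 spots was between 0.0383 and 0.0791 on an array. The Torin1 array stood 3.22-fold above the Lamtor1-deficient array, so the 2 treatments lay on either side of M2.

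**Figure D2:**
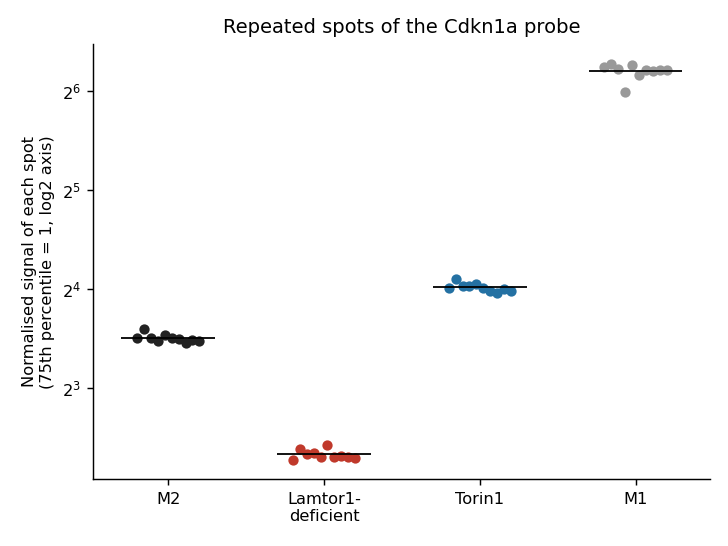
Normalised signal (log2 axis, 75th percentile of the array = 1) of each of the 10 spots of the brightest Cdkn1a probe on the M2, Lamtor1-deficient, Torin1-treated and M1 arrays, with a line at the mean of the spots. The means are 11.3, 5.02, 16.2 and 73.6, and the spots of one array do not reach those of another. Spots of one array share a culture and are not replicates of the condition.

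A second Cdkn1a probe (chr17:29227986-29228045), annotated to another transcript and 9.39 kb upstream of the brightest, read 0.344 on M2, 0.129 on Lamtor1-deficient, 0.220 on Torin1 and 1.38 on M1. It agreed in direction without Lamtor1 (-1.41) and in M1 (2.00), but with Torin1 its log2 ratio was -0.65, opposite in sign to the brightest probe. The remaining probe (chr17:29235299-29235358) was not well above background on the Lamtor1-deficient array, where Cdkn1a was at least 2.24-fold lower than on M2, and its log2 ratios were 0.89 with Torin1 and 3.78 in M1. Lower Cdkn1a without Lamtor1 was thus seen on each of the probes, while the direction after Torin1 differed between probes.

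Cdkn1b, which encodes p27 and is known to hold cells in quiescence, read 7.04 on M2, 5.75 on Lamtor1-deficient, 15.5 on Torin1 and 20.2 on M1 (chr6:134875424-134875483, mm9). Log2 ratios to M2 were -0.29, 1.14 and 1.52. Both Cdkn1b probes gave the same order of Lamtor1-deficient and M2 below the other arrays, and the second probe (chr6:134873606-134873665) had log2 ratios of -0.27, 1.42 and 1.32. Torin1 was 2.69-fold above Lamtor1-deficient on the brightest probe. A shift of each array to its median brought the Torin1 ratio to 0.89 and the M1 ratio to 0.70, both below 2-fold.

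The INK4 inhibitors Cdkn2c and Cdkn2d stayed within 2-fold of M2 on both treated arrays. Cdkn2c (p18) read 1.71 on M2, 2.85 on Lamtor1-deficient, 3.11 on Torin1 and 4.50 on M1. For Cdkn2d (p19) the values were 7.07, 12.0, 11.4 and 52.9 in the same order. Both were lowest on M2 and highest on M1, and for each the step between the Lamtor1-deficient and Torin1 arrays (0.13 and 0.07 in log2) was within 2 technical SDs. The log2 ratios to M2 were 0.74 and 0.86 for Cdkn2c, and 0.76 and 0.69 for Cdkn2d. In M1 the log2 ratios were 1.40 and 2.90, and that of Cdkn2c became 0.58 when arrays were shifted to their medians. With that shift Cdkn2c had 0.80 without Lamtor1 and 0.61 with Torin1, so M1 was no longer its highest array. Cdkn2d had 0.83 and 0.44 with the same shift, so the small step between the treated arrays also depends on the scaling.

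All D-type cyclins were lower than M2 on both treated arrays, and lower with Torin1 than without Lamtor1. Ccnd1 (chr7:152116202-152116261, minus strand, mm9) read 18.5 on M2, 3.21 on Lamtor1-deficient, 0.807 on Torin1 and 18.9 on M1. It was 5.77-fold lower without Lamtor1 and 23.0-fold lower with Torin1, and M1 and M2 differed by 0.03 in log2, which is within 2 technical SDs and became -0.80 with a shift of each array to its median. Ccnd1 is also expressed by fibroblasts and other stromal cells, which are a usual minor part of marrow cultures. The summed signal of 8 fibroblast and stromal markers was 43.7 on M2, 57.0 on Lamtor1-deficient, 15.7 on Torin1 and 16.4 on M1, and the part of stromal cells in the Ccnd1 values was not tested.

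Ccnd2 read 0.994 on M2, 0.601 on Lamtor1-deficient, 0.183 on Torin1 and 2.85 on M1 with the coding probe shown above. Its log2 ratios were -0.73, -2.44 and 1.52, the Torin1 value moved to -1.75 with another background correction, and the M1 value to 0.70, below 2-fold, when arrays were shifted to their medians. Ccnd3 (chr17:47736579-47736638, mm9), which is widely expressed in blood cells, read 10.9 on M2, 5.09 on Lamtor1-deficient, 1.72 on Torin1 and 60.1 on M1. Both Ccnd3 probes ranked the arrays, from the highest, as M1, M2, Lamtor1-deficient and Torin1, with log2 ratios to M2 of -1.10, -2.66 and 2.46 for the brightest and -1.34, -2.36 and 2.23 for the other (chr17:47736267-47736326). Torin1 stood below Lamtor1-deficient 3.98-fold for Ccnd1, 3.28-fold for Ccnd2 and 2.96-fold for Ccnd3.

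The kinases stayed within 2-fold of M2 in all 3 comparisons, although with arrays shifted to their medians Cdk4 in M1 reached -1.44 and Cdk6 with Torin1 -1.12 in log2 ratio. On the brightest probe (chr10:126504279-126504338, mm9) Cdk4 read 40.7 on M2, 75.9 on Lamtor1-deficient, 61.2 on Torin1 and 26.5 on M1, with log2 ratios of 0.90, 0.59 and -0.62. The coding probe shown above gave 0.73, 0.24 and -0.84, and its Torin1 ratio became -0.01 when arrays were shifted to their medians. The last Cdk4 probe (chr10:126504174-126504233), 105 bases from the brightest, gave -0.20, -0.75 and -0.67, so for Cdk4 the direction on both treated arrays depended on the probe while all 3 were lower on M1. Cdk6 was the dimmest member relative to its array (chr5:3522106-3522165, mm9), at 0.202 on M2, 0.191 on Lamtor1-deficient, 0.111 on Torin1 and 0.320 on M1. Its Lamtor1-deficient and M2 arrays were within 2 technical SDs, its Torin1 ratio was -0.87, and its M1 ratio of 0.66 became -0.16 with a shift of each array to its median.

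**Figure D3:**
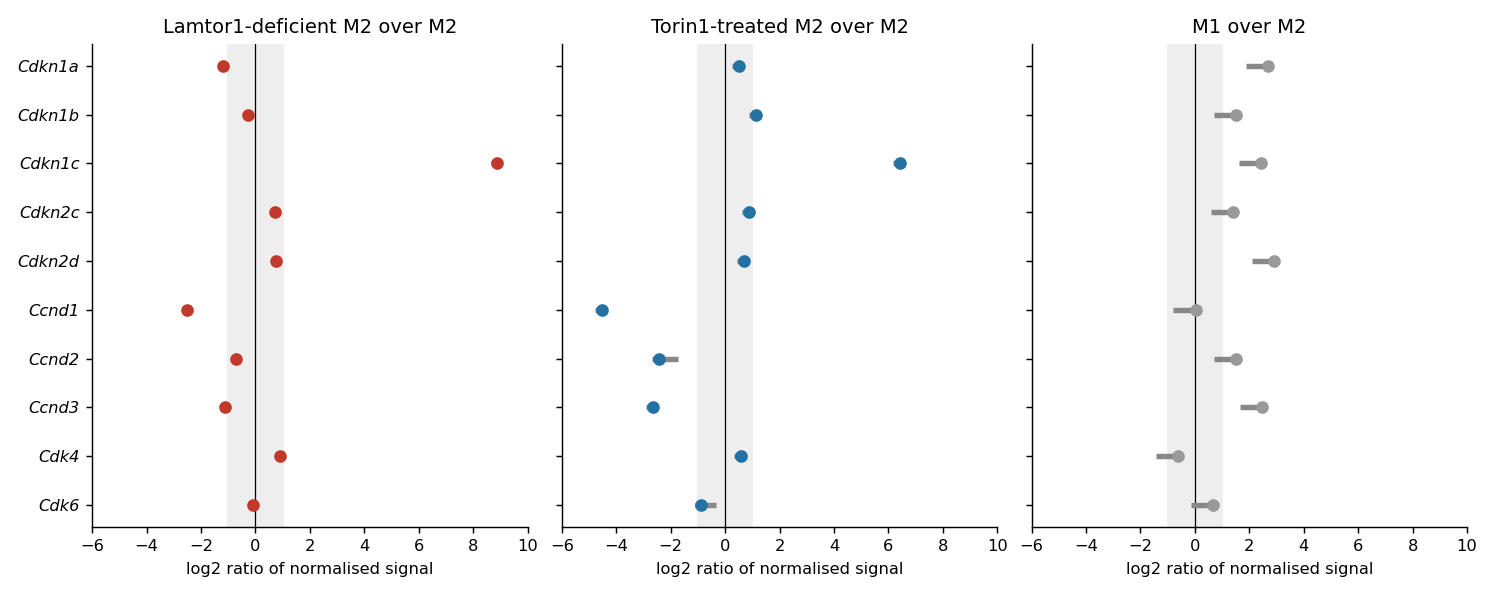
Log2 ratio of normalised signal to M2 for the brightest probe of each member in the Lamtor1-deficient, Torin1-treated and M1 comparisons (points), with grey lines for the range over 4 other scalings and background corrections and a shaded band for changes under 2-fold. Cdkn1c lies at 8.87 and 6.42 and Ccnd1 at -2.53 and -4.52 on the treated arrays. In M1 the ratios of Ccnd1 and Cdk6 change sign within their range.

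By a threshold of 2-fold on the brightest probe, 1 of the 10 members was higher without Lamtor1 (Cdkn1c) and 3 were lower (Cdkn1a, Ccnd1 and Ccnd3), where 8.87% of all named genes were higher and 8.67% lower. With Torin1, 2 were higher (Cdkn1b and Cdkn1c) and 3 lower (Ccnd1, Ccnd2 and Ccnd3), against 14.3% and 11.8% of all genes. In M1, 7 were higher and 0 lower, against 30.6% and 19.2%, and with arrays shifted to their medians 4 were higher and 1 lower. These contrasts were among the values that chose the members, so nothing is read from the shares. Ratios of M1 depend on the scaling, since a shift to the median moved the median log2 ratio of all genes by -0.82, and the share of 2-fold changes that were increases went from 61.4% to 32.8% in M1 and from 54.8% to 38.9% with Torin1. The median log2 ratio of the members was -0.19 without Lamtor1, 0.55 with Torin1 and 1.52 in M1, and that of all genes 0.04, -0.05 and 0.74. All comparisons share the single M2 array.

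The lists below were counted by the same 2-fold threshold, and each count is a description to be read beside the shares of all genes just given. Among the partners of these genes in the step from G1 to S phase, 0 of 18 were 2-fold higher and 1 lower without Lamtor1, 0 higher and 4 lower with Torin1, and 3 higher and 7 lower in M1, with median log2 ratios of 0.01, -0.10 and -0.84, and the M1 counts became 1 and 14 when arrays were shifted to their medians. Ccne1 (cyclin E1) had 0.35 without Lamtor1 and -2.08 with Torin1, E2f1 -0.42 and -1.72, E2f2 -0.08 and -3.10, and Ccna2 (cyclin A2) -1.11 and -3.67. Cdk2 was near M2 on both (-0.17 and -0.04) and Rb1, the retinoblastoma gene, stood at 0.56 and 0.77. Ccne2 was not well above background on any array.

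Targets of E2F and other proliferation genes were lower on both treated arrays more often than higher. Of 26, 9 were 2-fold lower and 1 higher without Lamtor1 (median -0.77), the latter falling to 0 under quantile normalization and 3 other settings, and 14 lower and 1 higher with Torin1 (median -1.15). Tk1 (thymidine kinase) had log2 ratios of -1.79 and -4.39, Rrm2 (ribonucleotide reductase) -0.81 and -2.90, Ccnb2 (cyclin B2) -0.79 and -3.22, and Birc5 (survivin) -0.44 and -2.43. In M1, 17 of the 26 were lower and 3 higher, so low proliferation genes stood beside Ccnd3 above M2 on that array and beside Ccnd3 below M2 on the Torin1 array.

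Upstream mitogen and growth signals included the immediate early genes. Of 28, 2 were 2-fold higher and 5 lower without Lamtor1 (median -0.18), and 6 higher and 8 lower with Torin1 (median -0.09). Myc stood at -1.34 and -2.66, Fos at -3.28 and -2.62, and Klf4 at -0.16 and -4.07. Other genes of the list, named after their values were seen, did not share this direction, with Jun at -0.29 and 0.15 and Csf1, which encodes M-CSF, at 1.55 and 1.33.

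Of 18 genes for the turnover of inhibitors and D-type cyclins, 1 was higher and 1 lower without Lamtor1 (median 0.02), near the shares of all genes, and 1 was higher and 4 lower with Torin1 (median -0.25). Fbxw7, the ubiquitin ligase subunit that recognises cyclin E, was higher on both (1.85 and 1.66), and Dtl, whose ligase degrades p21 in S phase, lower on both (-1.68 and -3.44). Skp2 and Cks1b, which together present p27 for degradation, had -0.17 and 0.07 without Lamtor1 and -1.06 and -1.12 with Torin1, and Fbxo4 had -0.53 and -1.50.

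The p53 targets were considered because Cdkn1a is one of them. Of 23, 4 were 2-fold higher and 1 lower without Lamtor1 (median 0.31), and 7 higher and 1 lower with Torin1 (median 0.19). The number higher with Torin1 lay between 3 and 8 over the scalings and other settings tried at this threshold. Gdf15 was higher on both treated arrays (2.99 and 2.98), as were Pmaip1 (2.26 and 1.06) and Bbc3 (0.92 and 2.33), the latter 2 encoding pro-apoptotic proteins, although Bbc3 did not reach 2-fold without Lamtor1. Mdm2, the ligase of p53, had 0.13 and 1.24, while Btg2 had -2.42 and -0.51. Without Lamtor1, Cdkn1a (-1.18) and Btg2 were thus lower on an array where Gdf15 and Pmaip1 were higher.

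Other regulators of CDKs included Gadd45g and Gadd45b, stress-induced genes whose proteins bind p21 and CDK1. Gadd45g had log2 ratios of 3.51 without Lamtor1 and 2.87 with Torin1, and Gadd45b 1.88 and 2.42. Trib1, which was counted on this list without being a CDK inhibitor, was lower on both (-3.97 and -1.95). The other INK4 genes, named after their values were seen, had 1.31 and -1.13 for Cdkn2a and -0.26 and -1.30 for Cdkn2b. Of the 19 genes on this list, 7 were higher and 2 lower without Lamtor1 (median 0.23), and 3 higher and 8 lower with Torin1 (median -0.48).

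**Figure D4:**
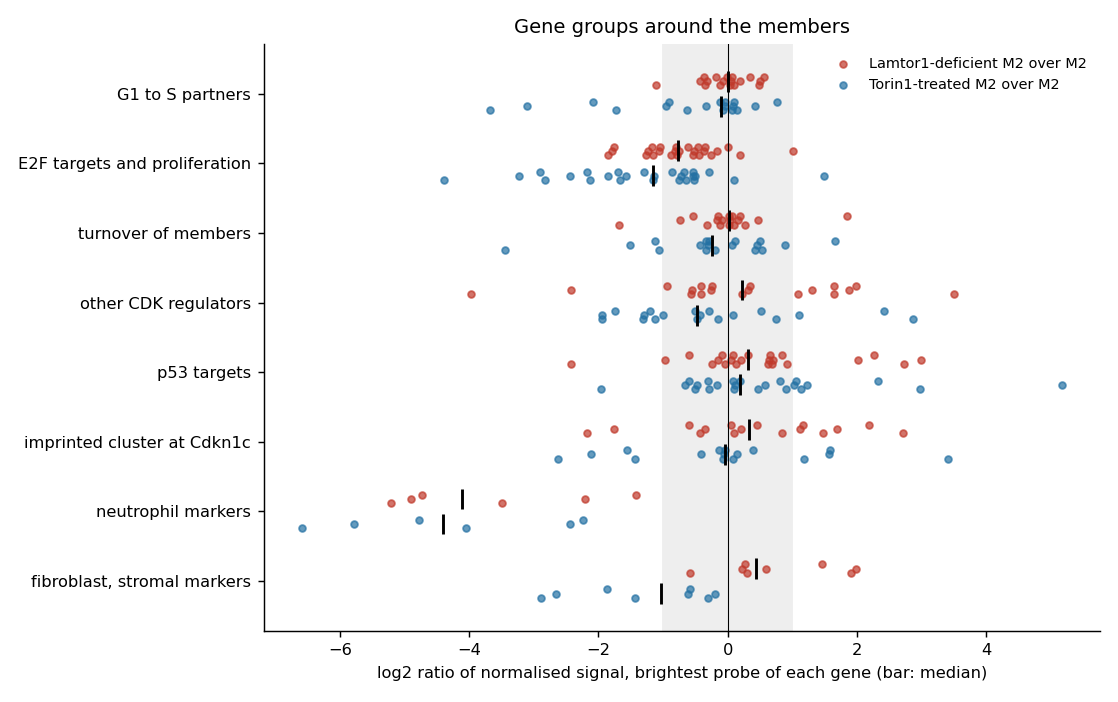
Log2 ratio of normalised signal to M2 of the genes on each list (1 point per gene, brightest probe) for Lamtor1-deficient and Torin1-treated M2 BMDMs, with a bar at the median and a shaded band for changes under 2-fold. E2F targets and proliferation genes have medians of -0.77 and -1.15, and all 6 neutrophil markers lie below the band in both comparisons.

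Cdkn1c is imprinted and expressed from the maternal copy in most tissues, under the control of the paternally expressed antisense RNA Kcnq1ot1, and its neighbours were therefore read. Of 16 genes of this cluster, 6 were 2-fold higher and 2 lower without Lamtor1 (median 0.34), and 4 higher and 4 lower with Torin1 (median -0.05), and of the 2 lower without Lamtor1, 0 were well above background on both arrays. None measured above background on each IL-4 array approached the ratio of Cdkn1c. The highest were Tnfrsf26 (2.71 and 3.41) and Tnfrsf23 (2.19 and 1.58), which encode decoy receptors. Kcnq1ot1 had -0.42 and 1.56, Osbpl5 1.69 and 0.08, and Tspan32 -0.35 and -2.62.

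In the RefSeq order of protein-coding genes, Cdkn1c lies between Kcnq1 and Slc22a18. Slc22a18 had log2 ratios of 1.13 without Lamtor1 and -0.05 with Torin1. Kcnq1, the potassium channel gene, was well above background on the M2 and Torin1 arrays, with -2.12 for Torin1. Farther out, Tssc4 (0.21 and 0.14) and Nap1l4 (0.10 and -0.05) differed little from M2, Cars had 0.85 and -0.42, Cd81 had -0.60 and -1.56, and Phlda2 and Trpm5 were not well above background on any array. Among 18 other imprinted genes, 6 were higher and 1 lower without Lamtor1 (median 0.18), and 3 higher and 1 lower with Torin1 (median 0.07), but with probes well above background on both arrays compared these counts were 3 and 0 without Lamtor1 and 1 and 0 with Torin1. Igf2r had 1.1 and 0.92, Impact 1.52 and 0.81, Plagl1 -0.33 and 2.16, and Dcn, also a stromal gene, 1.91 and -0.61. Meg3, named after its values were seen, was not well above background on M2, and was at least 16.2-fold higher without Lamtor1 and at least 1.30-fold higher with Torin1.

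The pattern of Cdkn1c was set against that of 12876 genes well above background on all 4 arrays by the Euclidean distance of the 3 log2 ratios to M2. Closest was Mcoln3, a lysosomal cation channel, at a distance of 2.43, with log2 ratios of 7.43 without Lamtor1, 4.47 with Torin1 and 2.24 in M1. Next came Sfrp5, a secreted Wnt antagonist (8.95, 3.46 and 0.73), Tst, a mitochondrial thiosulfate sulfurtransferase (5.39, 5.85 and 2.99), C77080 (6.01, 4.91 and 0.76) and Gprc5b (6.51, 7.15 and 5.73), at distances between 3.41 and 4.12. These 5 were picked for closeness to the ratios of Cdkn1c. That all 5 were higher than M2 on both treated arrays therefore follows from the choice. In M1 the ratios of Sfrp5 and C77080 were smaller than the shift of -0.82 that the median scaling gave, so their direction there depends on the scaling. The likeness rests on 3 ratios that share the M2 array.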

How the data were processed

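Expression was measured on 4 Agilent 8 x 60K whole mouse genome arrays in 1 colour, all on 1 slide in 1 scan. The deposited files hold intensities of each spot. The authors made the processed signal by background subtraction and detrending in Agilent Feature Extraction, which the file headers give as version 10.7.3.1 and the submitters' processing notes as 10.5.1.1. A deposited table of the series holds the same signals to within 0.497%.

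Following the study's methods, signals under 1 were set to 1 and divided by the array's 75th percentile, 287 (M1), 595 (M2), 536 (Lamtor1-deficient) and 470.0 (Torin1), before log2. Control and outlier spots were left out and spots of a probe averaged. No spot was saturated. The lowest signal well above background was between 15.7 and 21.6, which limits dim probes, and the number of arrays limits precision. Where a gene had several probes, the brightest by mean log2 signal over the arrays stood for it, and differences of 2-fold were counted. A probe not well above background on 1 of the arrays compared gives an "at least" bound. No test was possible with 1 array for a condition. The code was tested on simulated data. Python 3.11.15, pandas 2.3.3, R 4.3.3 and limma 3.58.1 (normexp with an offset of 50, quantile normalization) were used.

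The members and the gene lists were chosen with earlier results of these data known. The rule for named genes took the members, the targeted gene, per list up to 4 genes with the largest ratio on the treated arrays among those measured above background on each IL-4 array, a few set names such as Ccne1, Rb1 and Myc, and the 5 genes most like Cdkn1c. The neighbours of Cdkn1c were added afterwards. A gene that the rule also took is not reported here. RefSeq GRCm38.p6 gave promoter sequences, names and gene order, and probe coordinates are on mm9. Other scalings, background corrections, probe rules and thresholds were tried as alternatives. Lists of lymphocyte, endothelial, mast cell and progenitor markers were read as well, and 2, 0, 1 and 1 of their genes were 2-fold higher without Lamtor1 and 1, 1, 1 and 3 with Torin1, while 2, 0, 2 and 1 and then 2, 0, 3 and 2 were lower.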

Additional observations from a re-analysis of the deposited data

How the results depend on the processing

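Of the ratios of the members' probes under other settings (the ratios of other named genes were not recomputed), 351 stayed close to the reported value and 92 moved by more than the technical SD of a ratio. No ratio past 2-fold changed sign, and among those below it the M1 ratios of Ccnd1 and Cdk6 and the Torin1 ratio of the coding Cdk4 probe did. The number of members called without Lamtor1 held under each scaling and background correction, and changed with the threshold, to 4 higher at 1.5-fold and 1 lower at 3-fold. With Torin1 the number higher was 1 when arrays were shifted to their medians, since Cdkn1b dropped below 2-fold, 5 at 1.5-fold and 1 at 3-fold. In M1 a shift to the median left 4 members higher and made 1 lower, a 3-fold threshold left 4 higher, and a 1.5-fold threshold made 1 lower. The other 63 counts of members, and 438 counts in the gene lists, stayed within 1.5 times the reported count, while 42 counts in the lists did not. Normexp correction moved the median Torin1 ratio of all genes by 0.26 and a shift to the median by -0.25, and quantile normalization moved the M1 median by -0.80. Without a second array per condition, nothing here measures the spread between mice or cultures, and the technical SD of a ratio rose to 0.44 (Torin1 over M2) for probes not well above background. No paired analysis was possible because each condition has 1 array and no result comes from a test.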
